A study of Mus musculus with 6 samples.

Results

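The comparison set mouse T helper 17 (Th17) cells transduced with ADAR2_E396A, a form of ADAR2 that cannot deaminate, against cells transduced with the empty vector, the controls. It used 4 of the 6 libraries of the study, chosen by their group: 2 with ADAR2_E396A and 2 with the empty vector, 1 of each from each of 2 donor mice, called donors A and B here. Naive CD4 T cells of mice aged 8 to 12 weeks were activated with 0.25 μg/mL anti-CD3 and 1 μg/mL anti-CD28 in 0.1 ng/mL TGF-beta and 20 ng/mL IL-6. At 24 h they received an MSCV retrovirus, and for the next 48 h they were kept in 0.3 ng/mL TGF-beta and 20 ng/mL IL-6 before collection at 72 h, so both groups shared activation, cytokines and transduction. The strain, the species of the ADAR2 insert, any marker gene in the vector and any sorting of transduced cells are not stated in any source used. The remaining 2 libraries, with active ADAR2_WT, entered the estimate of the spread and are quoted only beside results of ADAR2_E396A.

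ADAR2, encoded by Adarb1, converts adenosine to inosine within double-stranded RNA. Its domains that bind double-stranded RNA are separate from the deaminase domain, so a form with a dead deaminase domain can still occupy RNA. Comparing it with an empty vector asks what a form that cannot itself deaminate does to transcript levels. Any effect on editing by the cells' own enzymes was not tested. Transcript abundance was measured here, not editing.

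The residue changed in E396A is a glutamate of the deaminase active site. In the mouse gene a glutamate codon at the position in that name was found in all 3 coding Adarb1 transcripts of GENCODE vM21, and the stretch around it was identical in them. It is shown because it is the single site at which the labels say that the construct departs from the active enzyme, and the capitals mark the glutamate codon of the endogenous mouse gene.

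Adarb1 E396 codon, GRCm38, chr10:77313452-77313478, minus strand, coding exon: gactgccacgcaGAGataatctcccga

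That codon lies at 77313464 to 77313466 on chromosome 10. The counts are per gene, so reads over this codon could not be separated from the rest of Adarb1, and reads of the insert could not be separated from those of the endogenous gene.

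Reads assigned to genes numbered 19094778 and 19674041 in the controls (donors A and B), and 19483096 and 21897166 in the ADAR2_E396A libraries. T cell genes were high in all 4 libraries: Cd4 lay between 13146 and 15997 normalized counts (reads divided by 1 scaling factor per library) and Cd3e between 4167 and 4742. Il23r and Rora, genes of the Th17 state, lay between 1937 and 3119 and between 5712 and 8433. Most markers of other cells were low, with Ebf1, Ighm and Vim as exceptions. The summed level of 13 myeloid markers was 101 and 127 normalized counts in the controls and 99.5 and 160 with ADAR2_E396A (donors A and B), with S100a8, S100a9, Mpo and Siglech at 0 in all 4 libraries. The sum of 9 CD8 and NK markers was 275, 268, 249 and 249 in the same order, with Ncr1, Klrg1 and Klra8 at 0. For 10 B cell markers it was 997, 1321, 941 and 1382, with Ms4a1 at 0 throughout. Ebf1, a B cell transcription factor gene, held most of that sum (747, 1143, 702 and 1198), followed by the immunoglobulin gene Ighm (199.95, 129, 179 and 112). The other 8 summed to 49.99, 48.7, 59.1 and 72.3. For 13 stromal markers it was 147323, 139186, 138601 and 143222, nearly all from Vim, which T cells also express, and without Vim 470, 764, 382 and 1006, mostly from Lum and Pecam1, with Krt8 at 0. The 5 gamma-delta T cell markers summed to 52.1, 63.3, 55.2 and 103, and the 7 erythroid markers to 9.37, 16.6, 19.7 and 20.9. The part of such cells in the results was not tested. Fewer cells of a type and less RNA per cell cannot be told apart in such bulk samples.

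Adarb1 rose with ADAR2_E396A. It was at 3672 and 3333 normalized counts in the controls of donors A and B and at 15644 and 14920 with ADAR2_E396A. Both transduced libraries were far above both controls, with a 4.26-fold difference in donor A and 4.48-fold in donor B. The fitted log2 fold change was 2.13 (limma SE 0.09, n = 2 per group), and edgeR's quasi-likelihood test gave an adjusted p of 4.96e-06. Per kb of annotated exon, the level of Adarb1 in the controls, 326 and 296 normalized counts per kb, was close to that of Adar, which encodes the related deaminase ADAR1, at 276 and 329. With ADAR2_E396A the level of Adarb1 was 1388 and 1324 per kb of annotated exon. The length of the insert is not given. If it is shorter than the annotated exons, these values are too low. Adar itself was at 2243 and 2671 normalized counts in the controls and 2330 and 2852 with ADAR2_E396A. Its groups overlapped, and its log2 fold change of 0.07 (limma SE 0.08) did not pass (edgeR adjusted p = 0.999).

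Thy1, which encodes a glycosylphosphatidylinositol (GPI)-anchored surface glycoprotein of T cells, fell. It stood at 24304 and 21422 normalized counts in the controls and at 11407 and 11528 with ADAR2_E396A in donors A and B. The groups did not overlap, and the donors differed little: the level with ADAR2_E396A was 0.469 of the control in donor A and 0.538 in donor B. Thy1 fell by 0.99 on the log2 scale (limma SE 0.09, n = 2 per group; edgeR adjusted p = 0.00115). Without the ADAR2_WT library of donor A, Thy1 no longer passed edgeR's test (adjusted p = 0.154), while its log2 fold change remained -0.99. A vector can carry a marker gene whose reads are counted with the cells' own gene; whether this one does is not given, and its part in the Thy1 level was not tested.

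Genes near Thy1 on chromosome 9 gave no call. Of 28 tested genes within 500 kb of it, 9 were lower and 5 higher in both donors, with a median log2 fold change of -0.03 and none past edgeR's threshold. Over all 14958 tested genes 23.9% were lower and 21.4% higher in both donors. The gene nearest to Thy1 in level, Rps25, which encodes a ribosomal protein, was at 7978 and 6587 normalized counts in the controls and 7793 and 6490 with ADAR2_E396A. Of 10 tested genes within 500 kb of Adarb1, 3 were lower and 1 higher in both donors, with a median of 0.01 and none past the threshold. The integrin gene Itgb2, one of these, was at 8677 and 5859 with the empty vector and 6995 and 6646 with ADAR2_E396A, so its groups overlapped.

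Zfr, which encodes a zinc finger protein that binds double-stranded RNA, rose by edgeR's test, near its threshold. It was at 2719 and 2988 normalized counts in the controls and 4117 and 4334 with ADAR2_E396A. The groups did not overlap, and the ratio was 1.51-fold in donor A and 1.45-fold in donor B. The log2 fold change was 0.57 (limma SE 0.08; edgeR adjusted p = 0.0483, DESeq2 adjusted p = 1.23e-05). Zfr did not pass edgeR with median-of-ratios factors, the scaling of the counts printed here (adjusted p = 0.0820), nor limma with a variance trend (0.0711). Without the ADAR2_WT library of donor A or that of donor B, edgeR's adjusted p for Zfr was 1.00 and 0.498. In the authors' deposited table, which was computed from the 4 libraries alone, Zfr had a log2 ratio of 0.57 in the direction used here and an adjusted p of 0.291.

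Adarb1, Zfr and Thy1 were the 3 genes of 14958 tested (0.0201%) that passed edgeR at an adjusted p under 0.05. The limma fit set as the main test, with 1 prior variance for all genes, called 0 genes (0%), with 757 at an unadjusted p under 0.05. Its adjusted p was 0.706 for Adarb1 and 0.780 for Thy1 and for Zfr. Each SE given here is from that limma fit, so it is not the basis of the edgeR or DESeq2 p beside it. That fit made no calls in a self-test with changed genes either, so its count of 0 is not read as an absence of change. The simulated counts were drawn with edgeR's own dispersions, a setting that can favour edgeR. There edgeR recovered 275 of 300 2-fold and 195 of 300 1.5-fold changes, with 41 false calls over 3 runs. With a variance that depends on expression level, limma called Adarb1 and Thy1. Calls here are therefore edgeR's unless another tool is named. The count moved with the libraries used: edgeR called 19 and 8 genes when the control of donor A or of donor B was left out, 217 and 109 when their ADAR2_E396A libraries were, and 1 and 2 when their ADAR2_WT libraries were. Adarb1 and Thy1 were the 2 genes that, in the authors' deposited table, had an adjusted p under 0.05.

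**Figure D1:**
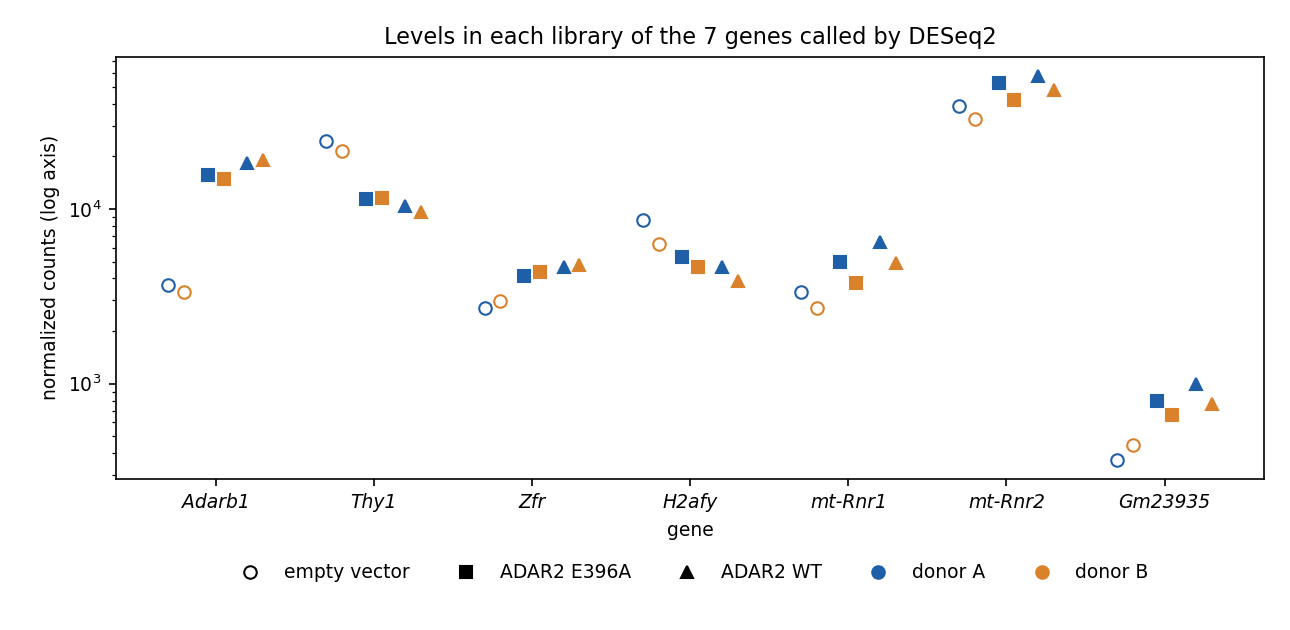
Normalized counts (log axis) of the 7 genes that DESeq2 called, with 1 point per library. Open circles are empty vector, squares ADAR2 E396A and triangles ADAR2 WT, in blue for donor A and orange for donor B. The squares lie apart from the circles at Adarb1, where they reach 15644 and 14920 against 3672 and 3333, while at Gm23935 they lie at 799 and 662 against 368 and 444.

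DESeq2 called 7 of 30308 genes (0.0231%), 5 higher and 2 lower: Adarb1, Thy1 and Zfr, and 4 that passed neither edgeR nor limma. One of these was H2afy, which encodes the histone variant macroH2A1. It was at 8668 and 6294 normalized counts in the controls and 5280 and 4668 with ADAR2_E396A. Its log2 fold change was -0.57 (limma SE 0.11; DESeq2 adjusted p = 3.69e-05, edgeR adjusted p = 0.148). H2afy overlaps the antisense gene Gm47071, and whether counting used strand is not given. The ribosomal RNA genes of the mitochondrion, mt-Rnr1 and mt-Rnr2, had log2 fold changes of 0.51 and 0.39 (DESeq2 adjusted p = 0.000151 and 0.00233, edgeR adjusted p = 0.0826 and 0.172). The last, Gm23935, annotated as a microRNA gene on chromosome 16, was at 368 and 444 normalized counts in the controls and 799 and 662 with ADAR2_E396A (DESeq2 adjusted p = 0.0117).

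With ADAR2_WT, set against the same empty-vector libraries, these genes lay on the same side of the control. Adarb1 was at 18422 and 18999 normalized counts, Thy1 at 10400 and 9596, Zfr at 4651 and 4758, and H2afy at 4661 and 3865. At Adarb1, Thy1, Zfr and H2afy the direct difference between the constructs was smaller in size than the fitted change with ADAR2_E396A. ADAR2_WT minus ADAR2_E396A was 0.29 (limma SE 0.09) for Adarb1, -0.20 (SE 0.09) for Thy1, 0.16 (SE 0.08) for Zfr and -0.23 (SE 0.11) for H2afy on the log2 scale. None of these differences passed edgeR's test (adjusted p = 0.155, 0.242, 0.390 and 0.259), which does not show that the constructs act alike. For mt-Rnr1 the difference was 0.38 (SE 0.08), called by DESeq2 and not by edgeR (adjusted p = 0.0744). Over all genes edgeR called 10 between the constructs (0.0669%), none of them among the 20 genes named by call, by a fixed name or by a change of at least 1.5-fold in both donors.

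The donors were then set side by side. Among genes whose mean reached 50 normalized counts that were not predicted genes, clones, pseudogenes or receptor segments, 9 of 10081 differed from the control by at least 1.5-fold the same way in both donors, against 59 that did so in opposite directions. Over all 14958 tested genes, low ones included, these numbers were 277 and 339. The 4 higher were Adarb1, Mttp, Smtn and Napsa, and the 5 lower were Thy1, Dlc1, Cd36, Cd109 and Rsph3a. Mttp, which encodes a lipid transfer protein of lipoprotein assembly, was at 68.7 and 58.4 normalized counts in the controls and 135 and 124 with ADAR2_E396A. Smtn, which encodes the cytoskeletal protein smoothelin, was at 95.8 and 96.4 against 154 and 158. Napsa, an aspartic protease gene, was at 40.6 and 39.0 against 68.0 and 62.8. In each of these 3 genes both transduced libraries were above both controls, by 1.60- to 2.10-fold within a donor.

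Of the genes that were lower in both donors, Cd36, which encodes a fatty acid receptor, was at 177 and 270 normalized counts in the controls and 97.5 and 128 with ADAR2_E396A. Dlc1, a GTPase-activating protein gene, was at 65.6 and 130 against 31.5 and 55.8. Cd109, which encodes a GPI-anchored surface protein, was at 95.8 and 149 against 47.3 and 88.9, so its groups did not overlap either. Rsph3a, a radial spoke protein gene of cilia, was at 174 and 188 against 114 and 125. Leaving Adarb1 and Thy1 aside, none of the genes with a change of 1.5-fold in both donors passed edgeR's test (adjusted p from 0.412 for Mttp and Cd36 to 0.999 for Smtn, Napsa, Cd109 and Rsph3a). With ADAR2_WT, Smtn stood at 88.4 and 96.9 and Dlc1 at 57.3 and 114, nearer to the controls than the ADAR2_E396A libraries, though neither difference between the constructs passed (edgeR adjusted p = 0.127 and 0.142).

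Across the 10769 genes whose mean reached 50 normalized counts, the change with ADAR2_E396A in donor A and that in donor B had a Pearson correlation of -0.24 across genes, which are not independent replicates. The 2 ratios share no library. In 44.1% of these genes the ratios had the same sign. The correlation was -0.22 for genes with a mean of 50 to 200, -0.29 from 200 to 1000, -0.33 from 1000 to 5000, and 0.15 among the 622 genes above 5000. That last value rests on Adarb1 and Thy1: without Adarb1 it was -0.17, and without both it was -0.27 over 620 genes. In all, 280 of these genes were at least 1.5-fold from the control in donor A and 311 in donor B. Of these, 11 were so the same way in both donors and 63 in opposite directions.

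**Figure D2:**
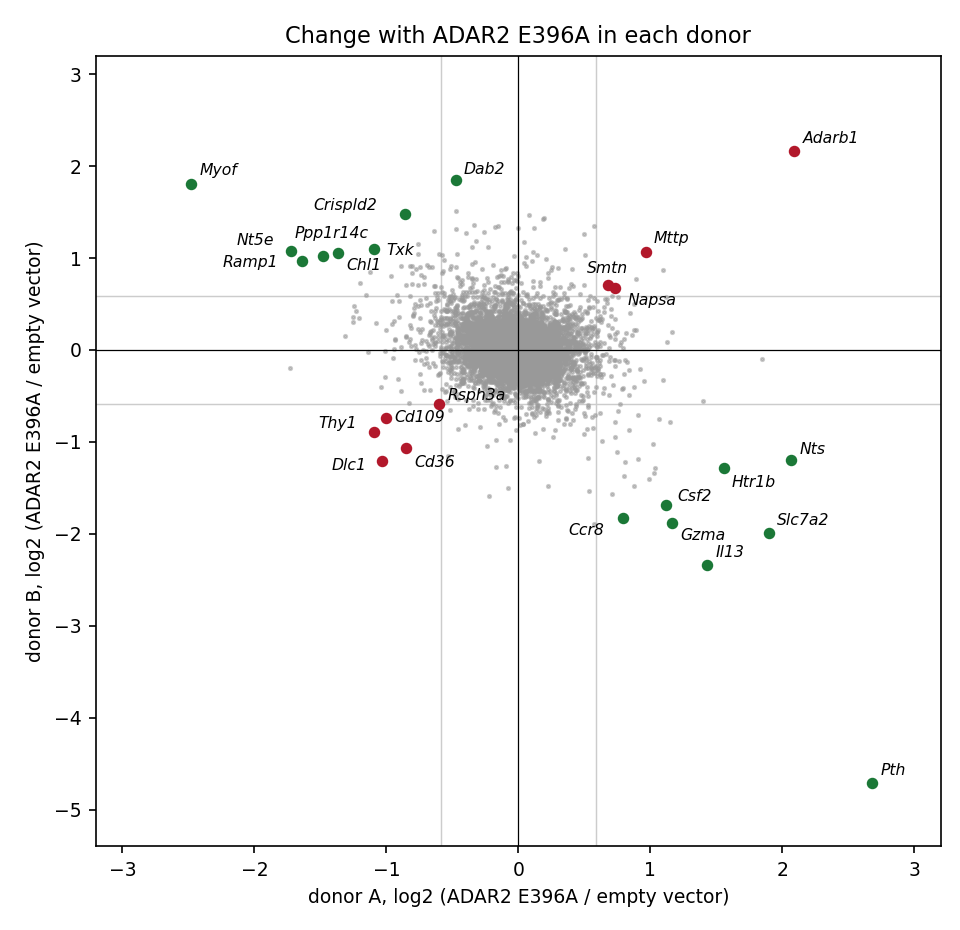
Change with ADAR2 E396A in donor A (horizontal axis) and donor B (vertical axis), as log2 ratios to the empty vector of the same donor, for 10769 genes whose mean reached 50 normalized counts. Grey lines mark 1.5-fold; red points are the genes past that fold the same way in both donors, and green points are those whose ratios differed most. Adarb1 stands alone at the upper right, at 2.09 and 2.16, and Pth at the lower right, at 2.68 and -4.72.

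The genes whose ratios differed most between the donors included cytokine and receptor genes of type 2 helper cells, cells that secrete IL-4, IL-5 and IL-13. Il13 was at 656 and 1285 normalized counts in the controls of donors A and B, and at 1768 and 253 with ADAR2_E396A. The log2 ratio was thus 1.43 in donor A and -2.34 in donor B. Ccr8, a chemokine receptor gene of type 2 and regulatory cells, was at 522 and 580 against 903 and 162. Csf2, which encodes GM-CSF, was at 89.6 and 322 against 196 and 99.4. Gzma, the granzyme A gene, was at 896 and 102 against 2008 and 27.0, so its controls also differed. Pth, the parathyroid hormone gene, was at 36.5 and 71.1 against 239 and 1.74. Slc7a2, Nts and Htr1b were likewise higher than the control in donor A and lower in donor B, with log2 ratios of 1.56 to 2.07 in donor A and -1.20 to -1.99 in donor B.

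The opposite order was seen in 8 further genes. Myof, which encodes the membrane repair protein myoferlin, was at 153 and 79.9 with the empty vector and 26.6 and 282 with ADAR2_E396A. Nt5e, which encodes the GPI-anchored ecto-enzyme CD73, was at 96.9 and 135 against 28.6 and 286. Crispld2 was at 982 and 606 against 541 and 1689. Ramp1, Ppp1r14c, Chl1, Txk and Dab2 were also lower than the control in donor A (log2 ratios from -1.64 to -0.47) and higher in donor B (0.97 to 1.85). Among all 6 libraries, the ADAR2_E396A library of donor B was the highest or the lowest at 12 of these 16 genes, the ADAR2_WT library of donor A at 9, the ADAR2_E396A library of donor A at 6, the control of donor A at 4, the ADAR2_WT library of donor B at 1 and the control of donor B at 0; the genes were chosen for their difference between the 2 ADAR2_E396A ratios. At Pth, Slc7a2, Il13 and Ccr8 both ADAR2_WT libraries, like the ADAR2_E396A library of donor A, were above their own control (for Il13, 2634 and 1968 normalized counts). Each donor gave 1 library per group, so these differences could not be tested.

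The same order ran through the list of type 2 and Th9 genes. This list includes Il13, chosen above for its difference between the donors, so it partly restates that choice. Of the list's 17 tested members, 13 were higher than the control in donor A and lower in donor B, and none the reverse. Over all 14958 tested genes 25.8% were higher in donor A and lower in donor B, and 28.8% the reverse. The median log2 ratio was 0.38 in donor A and -0.69 in donor B. Over all 14958 genes the medians were -0.02 and 0.00. Gata3, the transcription factor that directs type 2 differentiation, was at 1713 and 1807 normalized counts in the controls and 3409 and 683 with ADAR2_E396A. Il4 was at 80.2 and 80.8 against 164 and 39.2, and Il5, at few reads, at 16.7 and 26.3 against 80.8 and 0.872. The receptor gene Il4ra did not follow: it was at 15647 and 14024 against 15668 and 13954. Gata3 overlaps other annotated genes on both strands.

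**Figure D3:**
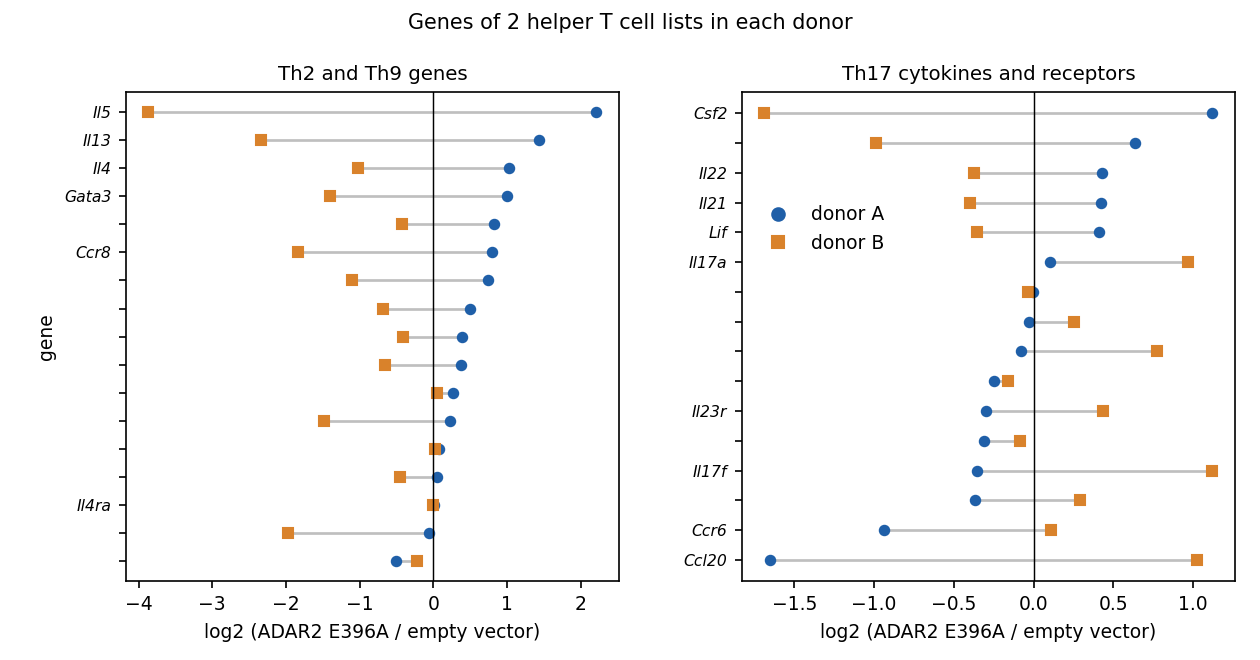
Log2 ratio of ADAR2 E396A to empty vector in donor A (blue circles) and donor B (orange squares) for the tested genes of the Th2 and Th9 list (left) and of the Th17 cytokine and receptor list (right), 1 line per gene, labelled where the text names it. In the left panel 13 of 17 genes have the circle above 0 and the square below it; in the right panel 5 of 16 do, and 7 have the reverse.

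Th17 cytokine genes varied between donors in the controls and with the construct. Il17a, the defining Th17 cytokine gene, was at 2437 and 9279 normalized counts in the controls and at 2616 and 18145 with ADAR2_E396A. Donor B was above donor A in both groups, and the ratio was 1.07-fold in donor A and 1.96-fold in donor B. Its log2 fold change was 0.53 (limma SE 0.37; edgeR adjusted p = 0.999). Il17f was at 6646 and 14443 against 5202 and 31376, lower than the control in donor A and higher in donor B. Ccl20, the ligand of Ccr6, was at 11.5 and 41.9 against 2.96 and 86.3. Il22, Il21 and Lif had the opposite order: Il22 was at 3042 and 6785 against 4093 and 5226. Of 16 tested cytokine and receptor genes of this list, 1 was higher and 3 were lower in both donors. The shares of all 14958 tested genes were 21.4% and 23.9%. None of the 16 passed edgeR's test. Of the transcription factors of the Th17 state, Maf was higher in both (3593 and 2653 against 4158 and 3100), and 9 of 15 tested were lower in donor A and higher in donor B, as were 28.8% of all tested genes; none passed edgeR's test.

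Regulators of neighbouring helper states gave no call. Ifng, which encodes interferon gamma, was at 233 and 213 normalized counts in the controls and 399 and 141 with ADAR2_E396A. Tbx21, the Th1 regulator T-bet, was at 860 and 995 against 849 and 710 (log2 fold change -0.25, limma SE 0.16; edgeR adjusted p = 0.999). Foxp3, the regulator of regulatory T cells, was at 19.8 and 7.79 against 10.8 and 10.5, a level at which few reads set the ratio. Of 14 tested Th1 genes 5 were lower and 1 higher in both donors, and of 18 regulatory T cell genes 4 were lower and 2 higher. The shares of all 14958 tested genes were 23.9% lower and 21.4% higher in both donors.

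No member passed edgeR's test in 4 lists of at least 10 tested genes that had positive medians in each donor and a majority of members higher in both. Over all 14958 tested genes, 21.4% were higher and 23.9% lower in both donors, and the members' counts are read against these shares. Of 41 interferon-stimulated genes, 23 were higher in both donors and 3 lower, with medians of 0.09 in donor A and 0.27 in donor B on the log2 scale. Irf7, a transcription factor that amplifies the interferon response, was at 168 and 365 normalized counts in the controls and 249 and 539 with ADAR2_E396A. The log2 ratio was 0.57 in donor A and 0.56 in donor B, so within each donor the library with ADAR2_E396A was higher, although the groups overlapped. Xaf1 was at 151 and 278 against 183 and 377, and Isg15, a ubiquitin-like protein gene, at 67.7 and 166 against 102 and 211. Gbp2 was lower than the control in donor A and higher in donor B. With ADAR2_WT, against the same controls, the medians of this list were 0.33 and 0.58.

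Of 10 tested genes for sensors of double-stranded RNA, the receptors that start such a response, and their adaptors, 6 were higher and 1 lower in both donors. The interferon-stimulated list also holds 4 of them. Dhx58, which encodes LGP2, was at 186 and 308 normalized counts against 231 and 451, and Ifih1, which encodes MDA5, at 565 and 1024 against 613 and 1259. Eif2ak2, the gene of the kinase PKR, was at 1741 and 2153 against 1853 and 2781. The adaptor gene Mavs was at 488 and 440 against 466 and 407. Of these 10 genes 2 differed by at least 2-fold between the donors' ratios.

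Of 24 genes of mitosis and the spindle, 16 were higher in both donors and none lower in both, with medians of 0.25 and 0.10. Cenpf, a kinetochore protein gene, was at 2593 and 2430 normalized counts in the controls and 3165 and 2991 with ADAR2_E396A, so both transduced libraries exceeded both controls. Ube2c, a ubiquitin-conjugating enzyme gene of the anaphase-promoting complex pathway, was at 408 and 457 against 569 and 601. Mki67, the gene of the proliferation antigen Ki-67, was at 11401 and 10446 against 12705 and 12536. Of 25 genes of DNA replication 11 were higher and 2 lower in both donors, with a median of 0.07 in each.

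Of 10 tested transcripts of the mitochondrial genome 9 were higher in both donors, with medians of 0.26 and 0.37. mt-Rnr1 was at 3359 and 2723 normalized counts in the controls and 4963 and 3752 with ADAR2_E396A, and mt-Rnr2 at 39009 and 32655 against 52346 and 41826; the groups did not overlap for either. These ribosomal RNAs took 0.213% and 0.185% of reads with the empty vector and 0.299% and 0.239% with ADAR2_E396A. The exception was mt-Co1, at 21609 and 14918 against 18793 and 19336. Several mitochondrial genes, mt-Co2 and mt-Atp6 among them, had fewer than 5 normalized counts in each library and were not tested. Nuclear copies of mitochondrial sequence can share reads with these genes, so their levels are uncertain. These libraries were depleted of ribosomal RNA, and the part of that step in the ribosomal RNA levels was not tested. Nuclear genes of the respiratory chain did not follow: 6 of 30 were higher and 7 lower in both donors, with medians of -0.01 and -0.04.

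**Figure D4:**
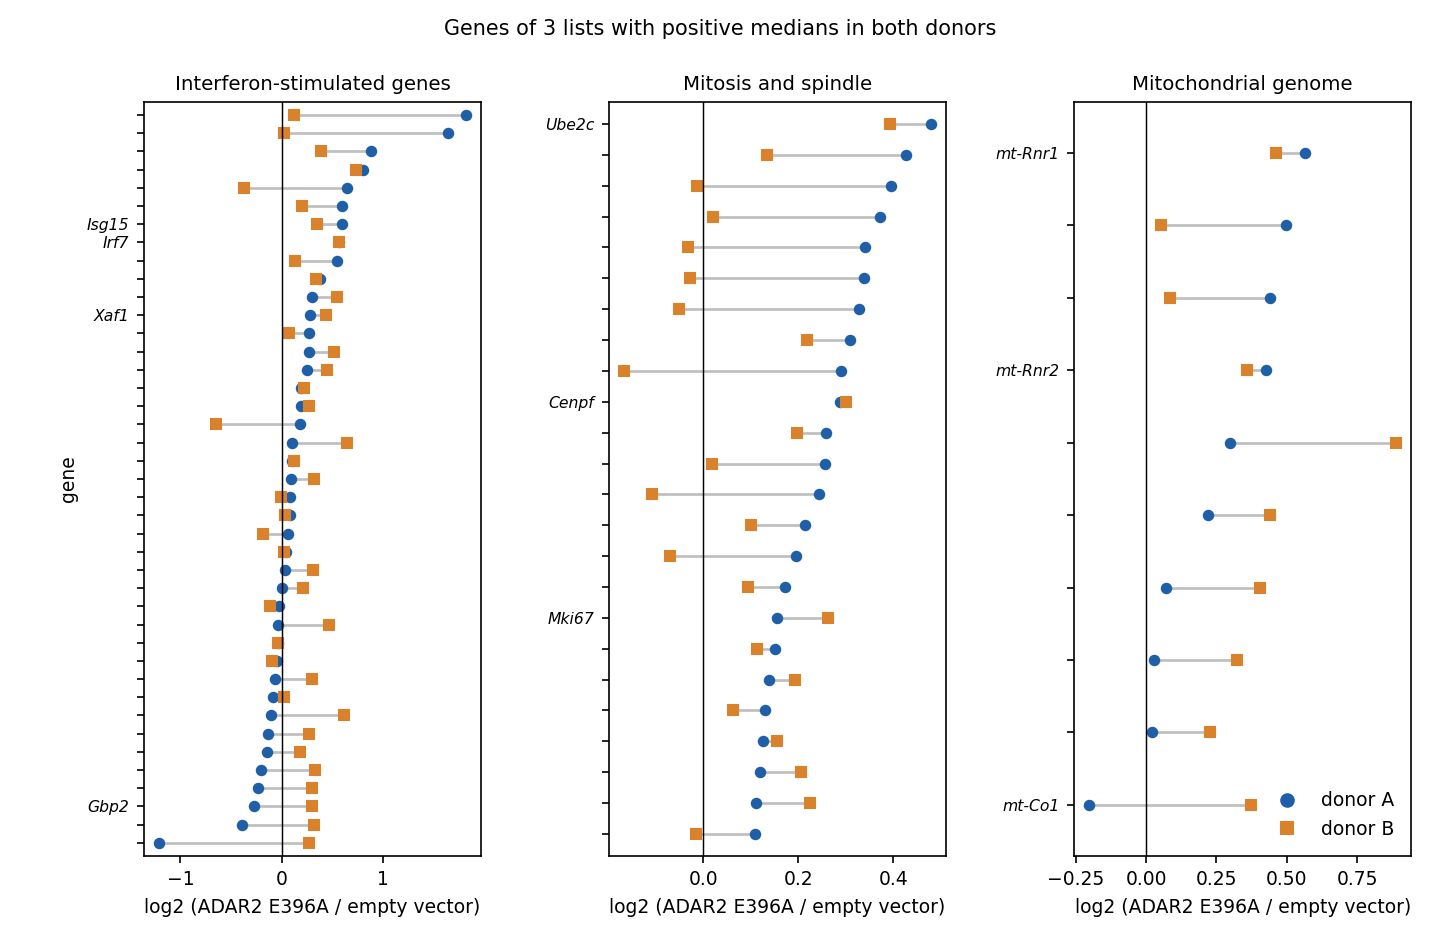
Log2 ratio of ADAR2 E396A to empty vector in donor A (blue circles) and donor B (orange squares) for the tested genes of 3 lists, 1 line per gene, labelled where the text names it; the horizontal scales differ. Both symbols lie above 0 for 23 of 41 interferon-stimulated genes, 16 of 24 mitosis genes and 9 of 10 mitochondrial transcripts.

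Other lists were lower in both donors for more members than higher. All 14958 tested genes had shares of 23.9% lower and 21.4% higher in both. Among the 10769 genes with a mean of at least 50, 2751 were lower and 2001 higher in both. Of 26 genes of glycolysis and the hypoxia response 14 were lower and 1 higher in both, with medians of -0.07 and -0.05. Tpi1, the triosephosphate isomerase gene, was at 8490 and 10640.3 normalized counts against 7824 and 9174, and Hk1, the hexokinase gene, at 8170 and 8067 against 7209 and 7758. Of 18 genes of TGF-beta signalling 10 were lower and 1 higher, led by Tgfb3, a ligand gene, at 125 and 63.3 against 66.0 and 50.6. Of 21 p53 targets 10 were lower and 1 higher; Cdkn1a, which encodes the cell cycle inhibitor p21, was at 7101 and 7543 against 6318 and 6668, and its groups did not overlap. Of 22 early activation genes 11 were lower and 1 higher, and the nuclear receptor gene Nr4a3 was at 1633 and 2497 against 1400 and 2016. None of these genes passed edgeR's test.

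Genes of the T cell receptor complex and its coreceptors, which like Thy1 act at the T cell surface, were lower in both donors for 9 of 21 and higher for none, by small amounts (medians -0.12 and -0.01). Cd6 was at 5421 and 6046 normalized counts in the controls and 4375 and 5591 with ADAR2_E396A, and Lat, the adaptor gene, at 4907 and 4808 against 4058 and 4384. Cd4 was lower than the control in donor A and higher in donor B. Of 18 tested genes of GPI-anchored surface proteins, the class to which Thy1 belongs, Thy1 was the 1 gene that passed edgeR's test. Over all 14958 tested genes 3 passed (0.0201%). In this class 7 genes were lower and 4 higher in both donors. Ly6a was at 11597 and 10032 against 11735 and 10097, and Cd24a at 12256 and 11283 against 13077 and 12861. Of 26 genes for synthesis of the GPI anchor 7 were higher and 3 lower in both. For each count in this paragraph, the shares of all 14958 tested genes were 23.9% lower and 21.4% higher in both donors.

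Genes of RNA biology close to ADAR2 were mostly near the control. Of 17 tested genes of double-stranded RNA-binding proteins, Adarb1, the overexpressed gene, and Zfr, near the threshold, passed edgeR's test. Over all 14958 tested genes 3 passed (0.0201%). In this list 5 members, Adarb1 and Zfr among them, were higher and 2 lower in both donors. The shares of all tested genes were 21.4% and 23.9%. The other members did not pass: Dhx9, an RNA helicase gene, was at 6122 and 6839 normalized counts against 5833 and 6055. Of 15 tested genes whose transcripts are known to be recoded by editing, 2 were higher and 3 lower in both donors. The shares of all 14958 tested genes were 21.4% and 23.9%. Cog3, a Golgi complex gene, was at 1168 and 1289 against 1506 and 1620, so both libraries with the dead enzyme exceeded both controls (edgeR adjusted p = 0.596). Flna, the filamin A gene, was at 14277 and 17577 against 12650 and 15854. Azin1 and Copa were each higher than the control in 1 donor and lower in the other.

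**Figure D5:**
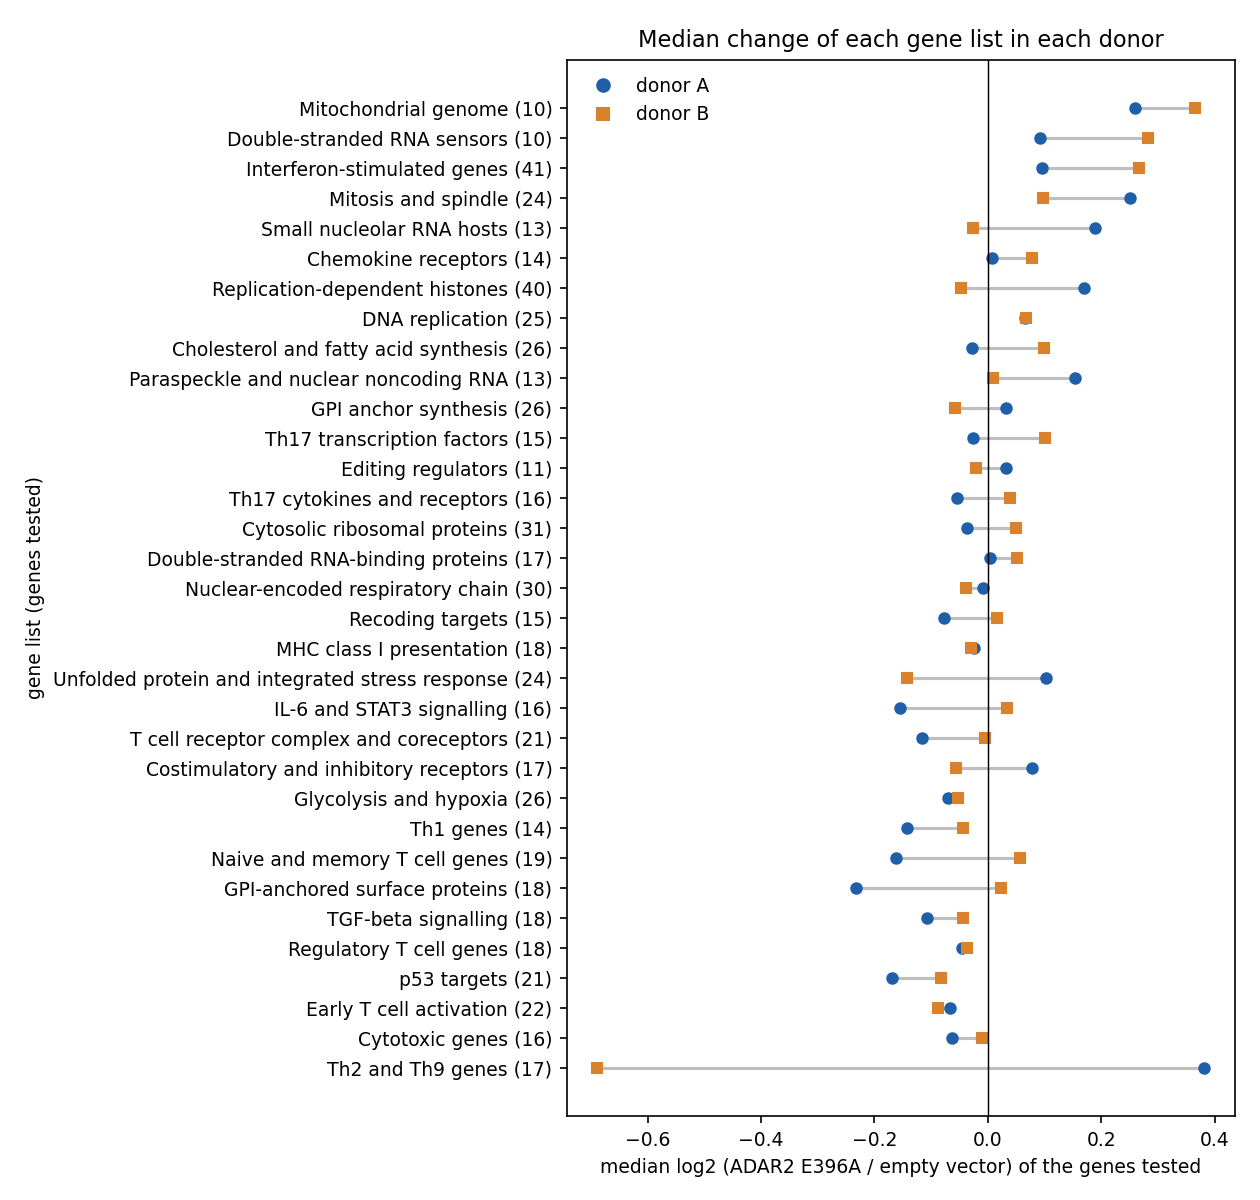
Median log2 ratio of ADAR2 E396A to empty vector in donor A (blue circles) and donor B (orange squares) over the tested genes of each list with at least 10 of them; the number tested is in brackets. The mitochondrial genome has medians of 0.26 and 0.37, and the Th2 and Th9 list has 0.38 in donor A and -0.69 in donor B.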

How the data were processed

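The tools named, per the submitters' processing notes, are the aligner STAR 2.6.1a, the counter featureCounts and DESeq2 1.18.1, with build mm10. No source used here gives their parameters, the strand setting or the annotation. The authors deposited 1 table of 55450 genes per construct. Per the file headers, each table gives a log2 fold change, a Wald statistic (a score) and a p-value, raw and adjusted. Its other columns, 1 per library, hold the authors' normalized counts (a signal). The authors' log2 ratios set the empty vector over the construct and were turned round here. Each deposited library column was reads divided by 1 factor, and dividing by its smallest value above 0 returned whole reads for 100% of values (within 0.001). All gene IDs matched GENCODE vM21.

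Columns carry no group or donor label. Groups rest on the names of the tables, with the libraries present in both taken as empty vector. The labels describe 2 donors, and which libraries share one was read from the authors' statistics: refitting with the pairing used returned their Wald values within 0.0001 over 28872 genes, against 2.03 without a donor term and 6.08 with donors crossed. The replicate number of donor A in the labels could not be traced. Nothing says that a donor gave more than 1 culture per group, so p-values measure the spread between these samples.

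Reads of all 6 libraries were scaled by median-of-ratios factors and filtered with filterByExpr. Normalized counts, raised by a pseudocount of 1 and taken to log2, were fitted with limma 3.58.1 (R 4.3.3) with group and donor as terms, with no variance trend, as set at the start, and Benjamini-Hochberg adjustment. Tested on counts simulated with edgeR's dispersions, that fit called none of the changed genes. Calls are therefore given from edgeR 4.0.16 (quasi-likelihood, TMM, recovered reads, same terms), an alternative set at the start, and from DESeq2 1.42.0 where named. Leading with edgeR was decided after the data were seen. Limma with a variance trend, edgeR and DESeq2 without the donor term, edgeR with 1 library left out, and the correlation between donors without Adarb1 and Thy1 were added then too. Fold changes and SE are limma's, and understate changes of low genes. Within-donor ratios are on the same log2 scale. Groups of 2 libraries can lie apart without any effect, so groups that do not overlap are a description and no test.

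The members, lists and tests were chosen with earlier results of these data known. Genes are named by rule: 9 fixed names, genes called by limma, edgeR or DESeq2, genes at least 1.5-fold from the control the same way in both donors, the 8 with the largest difference between donors in each direction (both at a mean of at least 50, predicted genes, clones, pseudogenes and receptor segments left out), genes within 500 kb of Adarb1 or Thy1, and the 2 members of each list with the smallest limma p. All other genes named, among them Gata3, Il4, Il22, Ccl20, Isg15, Mavs, Mki67, Cdkn1a, Hk1, Ly6a, Dhx9, Flna, mt-Co1 and the markers of cell types, were chosen after their values were seen. Of 40 lists, all had at least 1 tested gene. Results for some genes are not reported here.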

Additional observations from a re-analysis of the deposited data

Results flagged for a closer look

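In 16 genes the ADAR2_E396A library of donor A and that of donor B lay on opposite sides of their own controls, by the largest differences among genes whose mean reached 50 normalized counts. The differences, donor B minus donor A in log2 ratio, could not be tested, since each donor gave 1 library per group. They were -7.40 for Pth, -3.89 for Slc7a2, -3.77 for Il13, -3.26 for Nts, -3.05 for Gzma, -2.84 for Htr1b, -2.81 for Csf2 and -2.62 for Ccr8. They were 4.29 for Myof, 2.80 for Nt5e, 2.61 for Ramp1, 2.50 for Ppp1r14c, 2.42 for Chl1, 2.34 for Crispld2, 2.32 for Dab2 and 2.19 for Txk. The value for Pth rests on a level of 1.74 normalized counts in 1 library.

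The medians of the 17 tested Th2 and Th9 genes, Il13 among them, also lay on opposite sides of 0. They were 0.38 in donor A and -0.69 in donor B, a difference of -1.07 that was not tested. In the control libraries of the 2 donors Il13 already differed (656 and 1285 normalized counts), while Gata3 hardly did (1713 and 1807).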

How the results depend on the processing

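Adarb1 and Thy1 kept their direction in every fit run, as did Zfr. The limma fit without a trend called 0 genes; edgeR with TMM called 3, edgeR with median-of-ratios factors 2, DESeq2 7, and limma on genes with a mean of at least 50 called 1. With a variance trend limma called 2 genes, 1 without the replicate block and 1 from the 4 libraries alone. Without the replicate block that limma fit again called 0, edgeR 1 and DESeq2 3; without the pairing edgeR no longer called Thy1 (adjusted p = 0.190) and Zfr. Leaving out 1 library gave 0 to 217 calls over the tools; leaving out an ADAR2_E396A library removes the spread between that group's donors from the fit.

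Adarb1 passed with log2 fold changes of 2.14 (edgeR with TMM, with or without the block) and 2.13 (edgeR with median-of-ratios factors, DESeq2 with or without the block, limma at a mean of at least 50, and limma with a variance trend, also without the block and from 4 libraries). With 1 library left out, its log2 fold change lay between 2.07 and 2.20 over all such fits, passing or not. Thy1 passed with -0.98 (edgeR with TMM), -0.99 (edgeR with median-of-ratios factors, DESeq2, limma with a variance trend) and -0.995 (DESeq2 without the block), and lay between -1.07 and -0.907 with 1 library left out. Of the 20 genes named by call, fixed name or fold, the number that differed between ADAR2_WT and ADAR2_E396A was 0, 1 by DESeq2, and 0 to 8 with 1 library left out.

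Genes changed at least 1.5-fold the same way in both donors numbered 277 of 14958 (339 in opposite directions), 11 at a mean of at least 50 (63 opposite), and 56 at 2-fold (79 opposite). Fold changes of 4 genes that no fit with all libraries called changed sign when 1 library was left out. Il17a lay between -0.017 and 1.09 and Il17f between -0.374 and 1.15, both negative without the ADAR2_E396A library of donor B. Foxp3 lay between -0.810 and 0.393, and Ifng between -0.437 and 0.676. Foxp3 turned positive and Ifng negative without the empty-vector or the ADAR2_E396A library of donor A. List medians moved beyond the spread between donors in 51 of 357 cases. Low reads limit Foxp3, which lay between 7.79 and 19.8 normalized counts.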
